A study of Mus musculus with 12 samples.

Results

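The nuclear-encoded respiratory chain genes were taken as all rows whose symbol starts with Nduf, Sdh, Uqcr, Cox4, Cox5, Cox6, Cox7, Cox8 or Atp5, which gave 97 of the 31053 genes measured. They comprised 44 genes of complex I, 8 of complex II, 8 of complex III, 19 of complex IV, 17 of complex V and Cox7a2l, known as a factor of supercomplexes of complexes III and IV. Whether Cox7a2l acts so in these mice was not examined. All 97 were matched to a gene of the annotation, they lay on 19 chromosomes, and 0 lay on the mitochondrial chromosome. Beside the structural subunits the rule took in 8 assembly factors of complex I and 4 of complex II. The 13 protein-coding genes of the mitochondrial chromosome (symbols starting with mt-) were measured beside them.

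The cells came from spontaneous breast tumors of MMTV-PyMT mice, in which the mammary tumor virus promoter drives the PyMT oncogene, so that every group carried this transgene and no group received an additional treatment. Wild-type mice were set against PAR2 G37I mice, whose PAR2 cannot be activated by coagulation factor Xa, with 3 samples of each genotype for CD11c bead-selected cells of late-stage tumors and 3 of each for CD4/CD8 bead-selected T cells of mid-size tumors, 12 samples in all. Cells were frozen, thawed and measured on the 10x Genomics platform. Bead selection and tumor stage therefore cannot be told apart between the 2 matrices. Each matrix pooled 6 samples and its barcodes named no sample, so that genotypes were not compared, each matrix stood as 1 sample and no comparison carried a test. All intervals below are 95% exact intervals that cover counting error only.

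The respiratory chain carries electrons from NADH through complex I, or from succinate through complex II, to complex III and by cytochrome c to complex IV, which reduces oxygen. Complexes I, III and IV pump protons across the inner mitochondrial membrane and complex V, the ATP synthase, uses their return flow to make ATP. Complex II is encoded wholly in the nucleus, whereas complexes I, III, IV and V each combine nuclear-encoded subunits with subunits made inside the mitochondrion, so that 2 genomes contribute to each of them.

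After removal of cells with fewer than 200 detected genes, 11639 CD11c-selected cells with a median of 7943 unique molecular identifiers (UMIs, counted molecules) and 22806 CD4/CD8-selected cells with a median of 4361 UMIs were kept. The barcodes of each matrix fell into 6 alphabetical runs, which held 13314063 to 24231244 UMIs in the CD11c matrix and 16203038 to 30168668 in the CD4/CD8 matrix. Runs could not be assigned to a sample or a genotype and are given as ranges. The barcode sequences of 92 cells occurred in both matrices, and 76 and 51 barcodes occurred more than once within the CD11c and the CD4/CD8 matrix. Cell types were gated on raw marker UMIs, which left 51.1% of cells of the CD11c matrix and 26.6% of cells of the CD4/CD8 matrix in no gate. Markers that a gate did not itself use followed its name in most cases. Csf1r had 558 CPM (UMIs per 1000000 UMIs of the gate) in CD11c-selected macrophages and Cldn4 had 957 CPM in CD11c-selected tumor cells. Csf1r was an excluded marker of other gates, among them those of neutrophils, T cells and tumor cells. Its absence there was set by the gating. In the 97 cells of the neutrophil gate Retnlg reached only 22.7 CPM, whereas Il1r2 reached 3307 CPM and Hdc 2079 CPM. Counts were made at the 3′ end of transcripts and not divided by length. Each gene is therefore compared between cell types, and the order of members within a complex given below is an order of UMIs only.

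The nuclear-encoded set took a narrow range of the UMIs in the main immune gates and in tumor cells, whereas the mitochondrially encoded share was highest in tumor cells. In CD11c-selected cells the set made up 1.67% of the UMIs of 4299 macrophages (1.67 to 1.68%), 1.77% in 845 DCs (1.76 to 1.78%), 1.73% in 97 neutrophils (1.69 to 1.79%) and 1.61% in 261 tumor cells (1.60 to 1.62%). The mitochondrially encoded genes made up 5.20%, 4.50%, 4.22% and 11.6% of the UMIs in the same order. In CD4/CD8-selected cells the set took 1.86% in 15221 CD8 T cells, 1.84% in 64 Tregs (1.80 to 1.89%), 1.69% in 544 macrophages (1.68 to 1.70%) and 1.83% in 233 tumor cells (1.82 to 1.85%), beside mitochondrially encoded shares of 4.98%, 5.89%, 5.11% and 9.78%. Among the other gates with at least 20 cells, fibroblasts and endothelial cells had low set shares, at 1.22% (52 cells) and 1.28% (28 cells) in the CD11c matrix and 1.45% (43 cells) and 1.40% (22 cells) in the CD4/CD8 matrix. Conventional CD4 T cells of the CD4/CD8 matrix had 1.57% (521 cells, 1.56 to 1.59%), below the CD8 T cells and Tregs of that matrix. Plasmacytoid DCs had 1.84% (26 cells, CD11c matrix) and 1.91% (48 cells, CD4/CD8 matrix). The small gates of CD11c-selected CD8 T cells (22 cells, 1.61%) and Tregs (4 cells) and of CD4/CD8-selected DCs (8 cells) and neutrophils (1 cell) were not compared further.

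**Figure D1:**
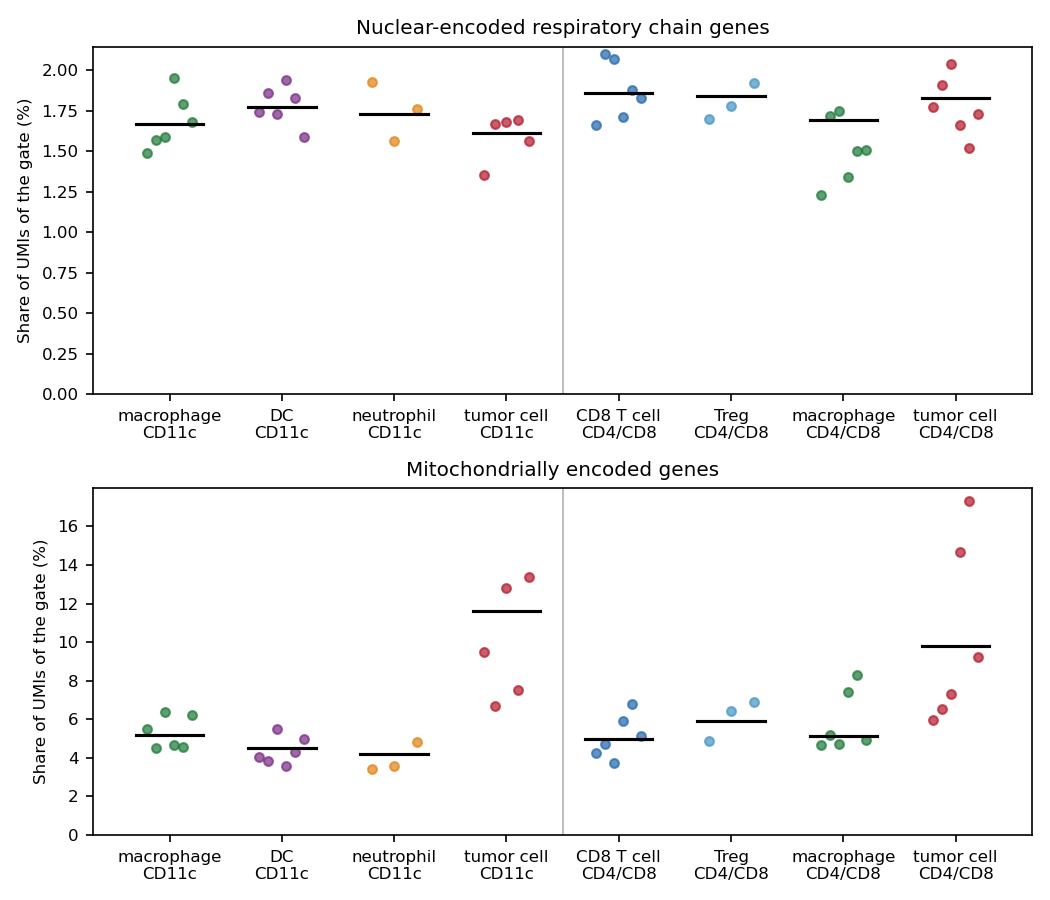
Share of all UMIs of a gate (%) taken by the nuclear-encoded respiratory chain genes (top) and by the mitochondrially encoded genes (bottom); each point is 1 barcode run with at least 10 cells of the gate and the black line is the value over all cells of the gate. Runs of tumor cells reached mitochondrially encoded shares of up to 17.3%, while the runs of the 4 gates plotted for each matrix overlapped in set share.

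The ranges of these shares over barcode runs overlapped, although within every run of the CD4/CD8 matrix macrophages had a lower share than CD8 T cells. Set shares of macrophage runs in the CD11c matrix lay between 1.49% and 1.95% and those of DC runs between 1.59% and 1.94%, so that neighbours in the order overlapped. Macrophages gated from both matrices had nearly the same share over all cells (ratio of the CD11c over the CD4/CD8 matrix 0.990, 0.985 to 0.995), and 0 of 82 members that passed the filter differed 1.5-fold between them, beside 21.9% of all genes. In the CD4/CD8 matrix run 3 held 297 of the 544 macrophages, with a median of 23114 UMIs and a share of 1.75%. The other macrophage runs of that matrix lay between 1.23% and 1.72%. Among macrophages with 5000 to 10000 UMIs the shares were 1.34% (CD11c matrix) and 1.27% (CD4/CD8 matrix). Tumor cells of the CD11c matrix had 0.877 times the share of those of the CD4/CD8 matrix (0.869 to 0.885), with 1 of 83 members past 1.5-fold, beside 9.0% of all genes. The median depth of tumor cells was 12774 UMIs in the CD11c and 17402 in the CD4/CD8 matrix. Among tumor cells with 5000 to 10000 UMIs the shares were nearly equal, 1.16% (27 cells) and 1.17% (32 cells). Their runs with at least 10 cells overlapped, at 1.35% to 1.69% and 1.52% to 2.04%.

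By complex, the members with most UMIs were shared between the matrices. In complex I, Ndufa13, an accessory subunit, led with 290 CPM over all CD11c-selected and 405 CPM over all CD4/CD8-selected cells, followed by Ndufa2 with 248 and 246 CPM, and by Ndufc2 with 220 CPM in the CD11c matrix and Ndufb11 with 242 CPM in the CD4/CD8 matrix. In complex III, Uqcrh, the hinge protein, had 440 and 732 CPM, Uqcrb 273 and 232 CPM and Uqcrq 251 and 213 CPM. In complex IV, Cox4i1 had 819 and 839 CPM and Cox8a 602 and 827 CPM, followed by Cox7c with 479 CPM in the CD11c matrix and Cox6c with 501 CPM in the CD4/CD8 matrix. In complex V, Atp5e, the epsilon subunit, had 546 and 579 CPM and Atp5b, the catalytic beta subunit, 485 and 534 CPM, beside Atp5l with 508 CPM in the CD11c matrix and Atp5h with 620 CPM in the CD4/CD8 matrix.

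Complex II, which oxidises succinate in the tricarboxylic acid cycle, took the smallest part of the set, with 2.47% of the set UMIs of its 4 subunits in CD11c-selected macrophages. Its flavoprotein gene Sdha had 98.9 CPM in macrophages, 93.4 in DCs and 95.1 in tumor cells of the CD11c matrix. The iron-sulfur subunit gene Sdhb had 111 CPM in macrophages, 87.1 in DCs and 64.9 in tumor cells. The membrane anchor gene Sdhc had 85.7, 54.9 and 71.2 CPM in the same order, and Sdhd, the other anchor, 118, 119 and 68.3 CPM. In the CD4/CD8 matrix Sdha had 77.2 CPM in CD8 T cells, 82.8 in macrophages and 91.3 in tumor cells, whereas Sdhc had 41.6 CPM in CD8 T cells, 92.2 in macrophages and 80.6 in tumor cells.

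Over all cells, DCs and macrophages of the CD11c matrix carried nearly the same set share, and a small number of members stood apart. The DC share was 1.06 times that of macrophages (1.05 to 1.06) and 1.05 times with mitochondrially encoded UMIs left out, but within the 6 barcode runs the ratio lay between 0.943 and 1.19 and was above 1 in 4 and below 1 in 2. Mitochondrially encoded genes had 0.865 times the macrophage share in DCs, and the ratio was below 1 in every run (0.737 to 0.95). Of 83 members with a mean of at least 10 CPM, 5 were at least 1.5-fold higher and 4 at least 1.5-fold lower in DCs, 10.8% against 34.7% of the 7162 genes that passed the filter (14.1% higher and 20.6% lower). The members' median ratio was 0.989 beside 0.972 over all these genes. In complex V 13 of 15 members had a ratio over 1, with a median of 1.07, compared with 13 of 40 in complex I, with a median of 0.928.

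Cox6b2, known as the testis isoform of the Cox6b subunit of complex IV, had the highest ratio of DCs over macrophages, 2.77 (2.26 to 3.39). Its DC runs lay between 12.3 and 22.7 CPM with a median of 15.2, and its macrophage runs between 3.59 and 8.42 CPM with a median of 5.58, without overlap. Sdhaf1, which helps to insert the iron-sulfur clusters of Sdhb, had 22.1 CPM in DCs and 10.2 in macrophages, a ratio of 2.17 (1.85 to 2.54). Its runs did not overlap either (12.8 to 27.5 and 8.82 to 11.9 CPM).

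Ndufa6, an accessory subunit of complex I, had 286 to 375 CPM in DC runs (median 307) and 154 to 218 CPM in macrophage runs (median 165), and the ratio was 1.85 (1.78 to 1.93). Uqcrfs1, the Rieske iron-sulfur protein of complex III, had 138 to 192 CPM (median 157) in DC runs and 100 to 111 CPM (median 104) in macrophage runs, a ratio of 1.58 (1.5 to 1.67). All DC runs exceeded all macrophage runs for both genes. Ndufa4, a subunit of complex IV, was the fifth member past 1.5-fold with a ratio of 1.55 (1.49 to 1.61), but its runs overlapped (312 to 407 and 198 to 334 CPM), and the ratio was 1.44 without run 2 and 1.48 without run 5.

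The 4 members that were lower in DCs were 2 assembly factors, a core subunit of complex I and an anchor of complex II. Ndufs7, which holds the terminal iron-sulfur cluster of complex I, had 41.4 to 63.9 CPM in DC runs (median 50.2) and 75.9 to 95.6 CPM in macrophage runs (median 83.8), with a ratio of 0.615 (0.563 to 0.672). Sdhc had 50.3 to 59.2 CPM (median 56.2) and 76.9 to 94.9 CPM (median 87.4), a ratio of 0.641 (0.587 to 0.698). The DC runs of both genes lay below every macrophage run. The assembly factors were Ndufaf4 with a ratio of 0.581 (0.468 to 0.716) and Sdhaf4 with 0.646 (0.549 to 0.756), the latter at 0.683 without run 1. Of 46 further pathway genes that passed the filter 1 was higher and 3 were lower past 1.5-fold, beside the 34.7% of all genes in either direction, with Chchd10 at 0.325, the copper chaperone Sco2 at 0.481 and the nuclear receptor Esrra at 0.531, and the tricarboxylic acid cycle enzyme Fh1 at 1.5, Higd2a at 1.49 and Gabpb1 at 1.45.

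**Figure D2:**
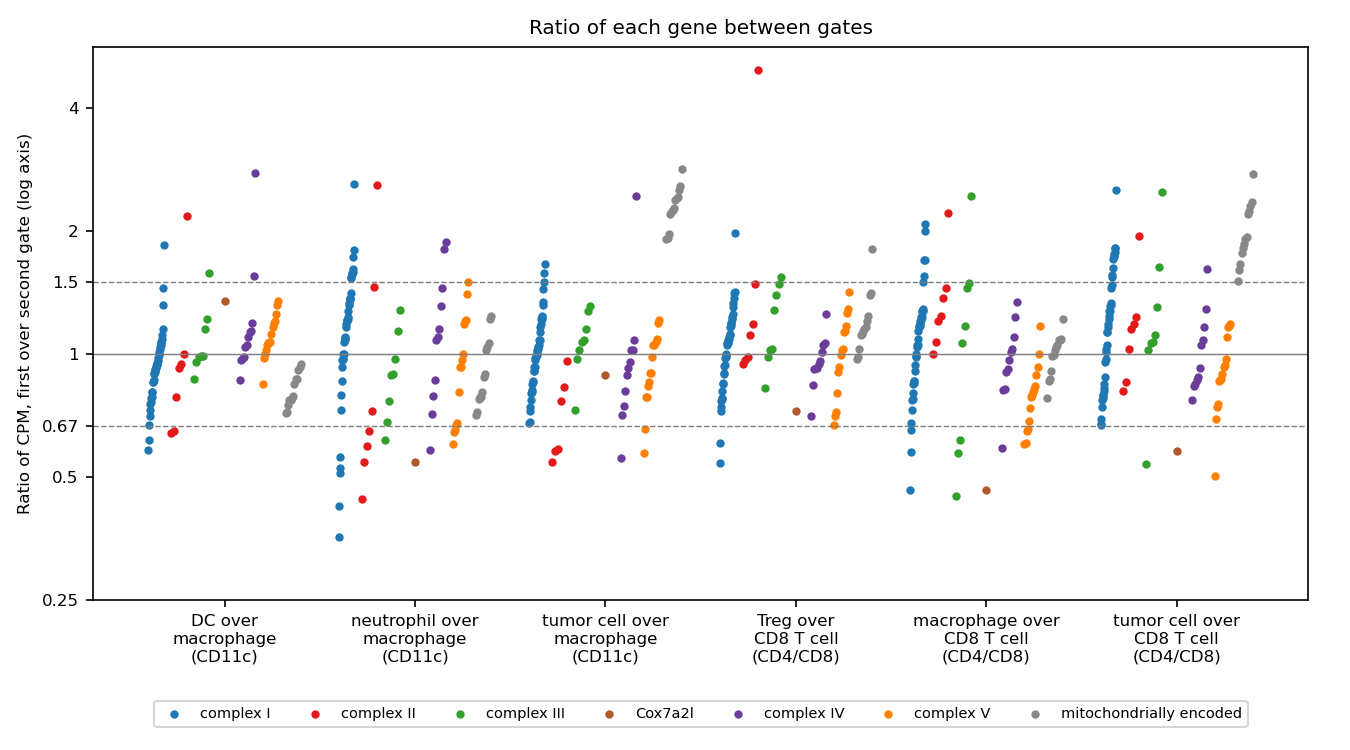
Ratio of CPM between 2 gates (log axis) for each gene with a mean of at least 10 CPM, coloured by complex and with the mitochondrially encoded genes in grey; dashed lines mark 1.5-fold either way. All 13 mitochondrially encoded genes stood above 1.5-fold in the 2 comparisons of tumor cells, where most members lay between the dashed lines.

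In the unscaled ratios over all cells neutrophils had the largest share of members past 1.5-fold among the 6 comparisons, at a depth that left many of them uncertain. Their set share was 1.04 times that of macrophages (1.01 to 1.07), but 0.959 times after scaling to UMIs outside mitochondrially encoded and ribosomal protein genes, 0.983 without run 2, and between 0.873 and 1.23 in the 3 runs with 10 cells or more. With a median of 2699 UMIs per cell the gate held 264597 UMIs, and 12 members were at least 1.5-fold higher and 15 at least 1.5-fold lower of 83 that passed, 32.5% against 62.6% of all genes (38.5% higher and 24.1% lower). The members' counts were 7 higher and 19 lower after that scaling, which is fewer than the 32 members then past 1.5-fold in CD4/CD8-selected macrophages over CD8 T cells. Cox7a2 and Cox6a1, subunits of complex IV, had 540 and 503 CPM in neutrophils beside 299 and 267 CPM in macrophages, ratios of 1.81 (1.52 to 2.13) and 1.88 (1.57 to 2.23). Ndufc2, an accessory subunit of the membrane arm of complex I, had 86.9 CPM beside 244 CPM, a ratio of 0.357 (0.226 to 0.535). The other members at the extremes rested on few neutrophil UMIs, which were 13 for Ndufaf3 (ratio 2.61, 1.38 to 4.49), 7 for Sdhaf1 (2.59, 1.04 to 5.38), 7 for Ndufa9 (0.425, 0.171 to 0.877) and 10 for Sdhc (0.441, 0.211 to 0.812).

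Complex II had 4 of 7 members lower and 1 higher past 1.5-fold in neutrophils, where 62.6% of all genes were. Without run 6 Sdhb moved from 0.648 to 1.14, Sdhaf4 from 0.594 to 1.01 and Sdhd from 0.545 to 0.720, so that of the 4 lower members Sdhc alone stayed past 1.5-fold. Of 47 pathway genes 15 were higher and 13 lower, a share near that background of 62.6%, among them Gabpb1, a subunit of the transcription factor GABP, with a ratio of 7.12 (4.42 to 10.9) and the copper chaperone Cox17 with 2.91 (2.27 to 3.67), and Uqcc1, an assembly factor of complex III, with 2.84 on 7 UMIs. At the other end stood the ADP/ATP carrier Slc25a4 with 0.101 (0.0207 to 0.294, 3 UMIs), Fh1 with 0.161 (0.0195 to 0.582, 2 UMIs) and Idh3a with 0.243 (0.0294 to 0.880, 2 UMIs).

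Tumor cells of the CD11c matrix had 2.22 times the mitochondrially encoded share of macrophages but nearly the same nuclear-encoded share. The set ratio was 0.961 (0.954 to 0.968), 1.03 with mitochondrially encoded UMIs left out of the total, and 1.04 both after the scaling to other genes and when cells with over 10% mitochondrially encoded UMIs were left out. In the 5 runs with 10 tumor cells or more the set ratio ranged from 0.909 to 1.07 and the mitochondrially encoded ratio from 1.48 to 2.15. The 13 mitochondrially encoded genes had ratios from 1.91 for mt-Co2 to 2.84 for mt-Cytb, with a median of 2.28. Mitochondrially encoded UMIs per nuclear-encoded UMI of the same complex were 4.82 in complex I, 5.99 in complex III, 13.0 in complex IV and 5.47 in complex V in tumor cells, compared with 2.02, 2.17, 6.18 and 2.11 in macrophages. The UMIs per tumor cell had a median of 12774 beside 7864 in macrophages. Among cells with 5000 to 10000 UMIs the mitochondrially encoded share was 12.7% in 27 tumor cells and 5.75% in 1202 macrophages. The set ratio there was 0.868. Under 2000 UMIs the order was the other way, with mitochondrially encoded shares of 1.79% in 60 tumor cells and 5.39% in 533 macrophages. Tumor cells had the higher share in every deeper bin.

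Of 82 members 4 were higher and 6 lower past 1.5-fold in these tumor cells, 12.2% against 58.1% of all genes (36.3% higher and 21.8% lower), with a median of 0.981 beside 1.19 over all genes. The members' counts were 6 higher and 5 lower after the scaling. Ndufa4 had the highest ratio, 2.44 (2.34 to 2.55), with 556 CPM in tumor cells and 228 CPM in macrophages. Ndufaf2, an assembly factor of complex I, followed with 1.66 (1.38 to 1.98) and the accessory subunit Ndufb9 with 1.58 (1.49 to 1.67). Both went under 1.5-fold without run 3 (1.47 and 1.48). Cox5a, a complex IV subunit, had 264 CPM in tumor cells and 475 CPM in macrophages, a ratio of 0.556 (0.525 to 0.587), and Atp5e 308 and 540 CPM, a ratio of 0.571 (0.542 to 0.600).

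In complex II 0 of 6 members had a ratio over 1. They were Sdhaf2, which adds the flavin to Sdha, at 0.543 (0.422 to 0.690), Sdhaf4 at 0.768 (0.620 to 0.943), Sdhd at 0.579 (0.518 to 0.645), Sdhb at 0.586 (0.523 to 0.655), Sdhc at 0.831 and Sdha at 0.961, a value that passes 1 when multiplied by the scaling factor of 1.081. Pathway genes past 1.5-fold numbered 10 higher and 3 lower of 50, beside 58.1% of all genes in either direction. They included Acad9, which acts in complex I assembly (3.69, 2.92 to 4.64), Chchd10 (2.58) and Gabpb1 (2.48), and on the low side the uncoupling protein gene Ucp2 (0.212, 0.195 to 0.229), the ADP/ATP carrier Slc25a5 (0.513) and the outer membrane channel Vdac2 (0.621). These 3 comparisons of the CD11c matrix share the macrophages as the second gate.

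Among CD4/CD8-selected cells, Tregs and CD8 T cells carried set shares whose ratio had an interval that included 1. The ratio was 0.989 (0.966 to 1.01), 0.999 without mitochondrially encoded UMIs and 0.873 after the scaling, since ribosomal protein genes took 27.9% of the UMIs of CD8 T cells and 18.1% of those of Tregs. The 3 runs with 10 Tregs or more gave ratios from 1.02 to 1.04. Mitochondrially encoded genes had 1.18 times the CD8 share (1.17 to 1.20), and 1.02 to 1.15 times within those runs. Of 82 members 3 were higher and 2 lower past 1.5-fold, 6.10% against 40.9% of all genes (25.7% higher and 15.1% lower). The members' counts were 3 higher and 10 lower after the scaling, and the count of 5 became 7 without run 3, 9 without run 6, 10 without run 1, 2, 4 or 5 and 14 with doubled gate thresholds.

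Sdhaf1 stood apart in Tregs with 72.9 CPM beside 14.8 CPM in CD8 T cells, a ratio of 4.94 (3.21 to 7.27) on 26 UMIs, and the ratio lay between 4.35 and 5.71 when each run was left out. Ndufaf2 had a ratio of 1.97 (1.08 to 3.32, 14 UMIs), and Uqcr11, a small subunit of complex III, 1.54 (1.18 to 1.98), or 1.29 without run 4. The accessory subunits Ndufa3 and Ndufb10 had ratios of 0.541 (0.330 to 0.837) and 0.605 (0.430 to 0.828), and Atp5h of complex V had 0.669 (0.570 to 0.780), just inside 1.5-fold. Of 50 pathway genes 4 were higher and 5 lower, beside 40.9% of all genes in either direction, with Atpif1, the inhibitor of the ATP synthase, at 1.88 (1.51 to 2.32), Tmem70 at 1.67 and Gabpb1 at 1.58, and Ecsit at 0.390 (3 UMIs), Surf1 at 0.476 (7 UMIs) and Tfb2m at 0.566 (4 UMIs).

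Macrophages carried through the CD4/CD8 selection had a lower set share than the CD8 T cells beside them, and several members of the same complex lay on opposite sides. The ratio was 0.908 (0.903 to 0.913) over all cells, and between 0.741 and 0.846 with a median of 0.810 within the 6 runs, all of which were below 1. The pooled value lies outside the range of the runs, since run 3 held 297 of the 544 macrophages but 2311 of the 15221 CD8 T cells and had set shares of 1.75% and 2.07%, above most other runs. Macrophages had a median of 14177 UMIs per cell and CD8 T cells 4559, and among cells with 5000 to 10000 UMIs the ratio was 0.692 (91 macrophages). After the scaling it was 0.709. The mitochondrially encoded share had a ratio of 1.03 over all cells and of 0.960 to 1.27 within runs, with a median of 1.17.

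Of 82 members 8 were higher and 12 lower past 1.5-fold, 24.4% against 65.1% of all genes (28.7% higher and 36.4% lower), and the split was 4 higher and 28 lower after the scaling, which multiplies every ratio by 0.781, a shift of -0.36 on the log2 scale. Complex V had 2 of 15 members over 1 and a median of 0.792, and complex II had 6 of 7 over 1 and a median of 1.24. The median over all genes was 0.890. Multiplied by the factor of 0.781 the complex II median falls below 1, so only the order of these complexes is free of the scaling. Complex III had 1 higher and 3 lower past 1.5-fold. The promoters of the members at both extremes follow, to place these genes, as 300 bases around the start of transcription (250 before, 50 after) from RefSeq, build GRCm38.p6, 5′ to 3′ on the gene's strand, and Sdhc, the only other member of this rank, had no matching window. Capitals mark exact matches to 4 motifs. That of ETS factors such as GABP (CCGGAAGT) was in Uqcr11 and, on the other strand, in Uqcrh. That of YY1 (AAGATGGC) was in Ndufc1. That of NRF1 (GCGCATGC) was in Ndufaf4 and, on the other strand, in Uqcr11. Of its 3 matches in Ndufaf4 2 overlapped, and 1 of these 2 lay on the other strand. That of Sp1 (GGGCGG) was in Cox7a2l and, with overlapping matches, in Ndufaf4. The RefSeq start of Cox7a2l lies within the gene as annotated in GENCODE.
Uqcr11, chr10:80406772-80407071, minus strand: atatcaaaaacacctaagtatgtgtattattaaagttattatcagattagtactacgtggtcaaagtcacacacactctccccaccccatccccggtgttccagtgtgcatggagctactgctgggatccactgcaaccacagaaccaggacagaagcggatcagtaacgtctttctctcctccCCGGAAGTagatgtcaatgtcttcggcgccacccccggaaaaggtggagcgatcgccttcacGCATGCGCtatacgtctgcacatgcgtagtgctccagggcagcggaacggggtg
Ndufc1, chr3:51408906-51409205, minus strand: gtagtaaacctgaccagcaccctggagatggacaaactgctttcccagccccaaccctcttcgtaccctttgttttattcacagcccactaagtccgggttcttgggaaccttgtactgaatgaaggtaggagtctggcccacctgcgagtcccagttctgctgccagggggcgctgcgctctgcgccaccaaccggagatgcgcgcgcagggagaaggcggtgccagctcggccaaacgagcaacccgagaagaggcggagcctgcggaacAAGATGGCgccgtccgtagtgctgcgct
Uqcrh, chr4:116075021-116075320, minus strand: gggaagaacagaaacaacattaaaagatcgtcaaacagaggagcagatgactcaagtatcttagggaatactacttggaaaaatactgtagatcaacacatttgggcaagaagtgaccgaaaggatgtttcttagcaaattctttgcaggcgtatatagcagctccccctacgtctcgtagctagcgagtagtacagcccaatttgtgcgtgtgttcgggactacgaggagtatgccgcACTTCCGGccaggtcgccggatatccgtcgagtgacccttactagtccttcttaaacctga
Cox7a2l, chr17:83514284-83514583, minus strand: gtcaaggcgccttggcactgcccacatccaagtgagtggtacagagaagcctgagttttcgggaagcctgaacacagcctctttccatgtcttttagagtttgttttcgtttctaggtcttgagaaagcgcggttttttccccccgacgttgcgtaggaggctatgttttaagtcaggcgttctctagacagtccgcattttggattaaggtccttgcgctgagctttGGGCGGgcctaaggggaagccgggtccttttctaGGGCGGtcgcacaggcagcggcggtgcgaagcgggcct
Ndufaf4, chr4:24897833-24898132, plus strand: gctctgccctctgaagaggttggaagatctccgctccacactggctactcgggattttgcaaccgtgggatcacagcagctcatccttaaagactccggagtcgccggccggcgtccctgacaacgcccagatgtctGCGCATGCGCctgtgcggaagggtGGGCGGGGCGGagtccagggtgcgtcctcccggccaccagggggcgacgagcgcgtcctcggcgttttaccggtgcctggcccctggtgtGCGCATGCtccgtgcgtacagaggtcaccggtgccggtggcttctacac

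RefSeq windows were matched for 77 of the 97 members, 82 windows in all. On either strand the NRF1 letters were in 14.6% of these windows and in 2.71% of all 32851 promoter windows, the ETS letters in 6.10% and 3.89%, the YY1 letters in 12.2% and 2.75%, the Sp1 letters in 46.3% and 35.7%, and the TATA letters (TATAAA) in 11% and 13.6%. A match describes the letters only.

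Uqcr11 (chr10:80402997-80406830), the gene of the first promoter, had the highest ratio of macrophages over CD8 T cells, 2.43 (2.33 to 2.54). Its macrophage runs ranged from 105 to 297 CPM (median 208) and its CD8 runs from 73.6 to 150 CPM (median 109). The ranges overlapped, but the macrophages were higher within each run. Sdhc (chr1:171127165-171150603) had 57.7 to 98.5 CPM in macrophage runs (median 75.3) and 29.2 to 57.7 CPM in CD8 runs (median 40.9), a ratio of 2.21 (2.05 to 2.39), and the ranges met at 57.7 CPM. Ndufc1, an accessory subunit of complex I, had a ratio of 2.08 (1.96 to 2.20), which was 1.47 without run 3 and 1.08 among cells with 5000 to 10000 UMIs. Its partner Ndufc2 (chr7:97400003-97407802) had 208 to 313 CPM in macrophage runs (median 263) and 83.9 to 148 CPM in CD8 runs (median 111), without overlap, with ratios of 2.00 (1.90 to 2.09) over all cells and 2.23 in that depth window.

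On the low side Uqcrh (chr4:116066965-116075071) had 341 to 486 CPM in macrophage runs (median 376) and 793 to 872 CPM in CD8 runs (median 853), a ratio of 0.449 (0.434 to 0.464). Cox7a2l (chr17:83501918-83517330) had 233 to 339 CPM (median 303) and 490 to 570 CPM (median 532), a ratio of 0.463 (0.444 to 0.483). Neither gene's ranges overlapped, and both ratios were nearly the same among cells with 5000 to 10000 UMIs (0.453 and 0.475). Ndufaf4 had 11.9 CPM in macrophages and 25.6 CPM in CD8 T cells, a ratio of 0.465 (0.380 to 0.564). In complex III, Uqcr11 and Uqcrh thus lay on opposite sides of 1.5-fold, as their ratios of 2.43 and 0.449 show.

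**Figure D3:**
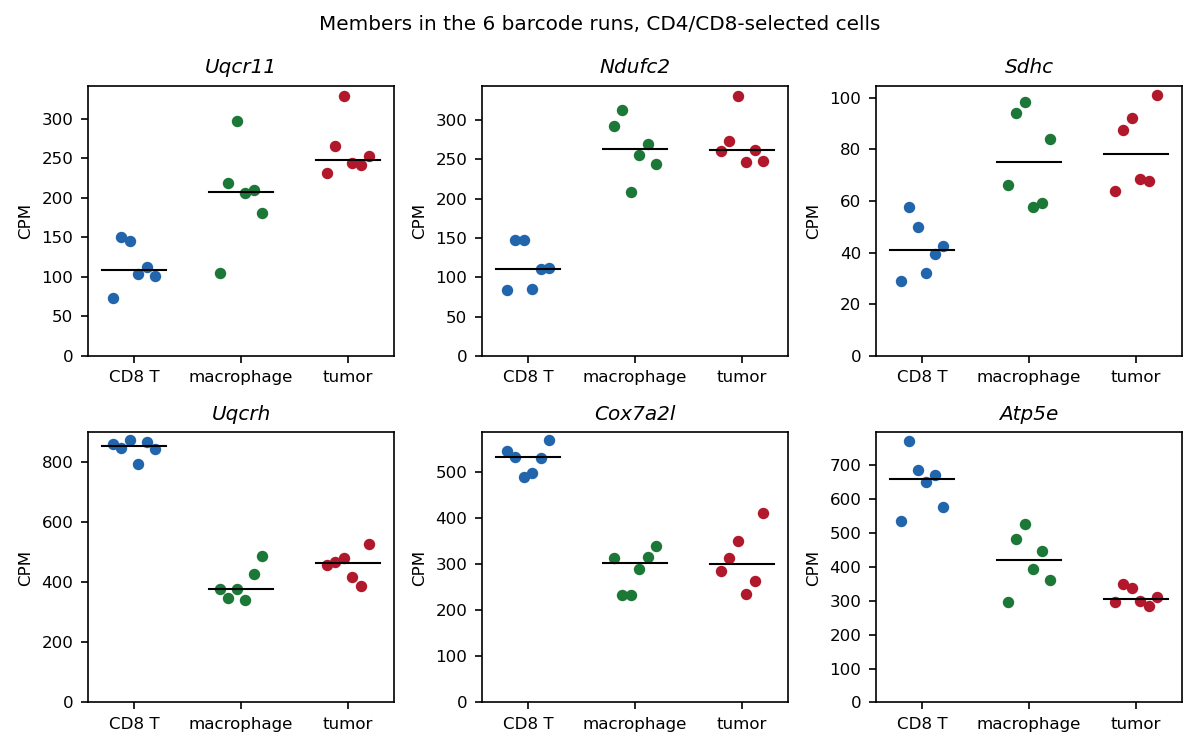
CPM of 6 members in the 6 barcode runs of the CD4/CD8-selected cells, in CD8 T cells, macrophages and tumor cells; each point is 1 run and the black line is the median of the runs. Uqcrh and Cox7a2l were higher in every CD8 run than in any macrophage or tumor cell run, and Ndufc2 was lower.

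Of 50 pathway genes 6 were higher and 16 lower past 1.5-fold in these macrophages, beside 65.1% of all genes in either direction. Atpif1 had a ratio of 3.50 (3.37 to 3.62), Ucp2 2.49 (2.41 to 2.56) and Vdac1, the main outer membrane channel, 2.06 (1.93 to 2.19). Gabpb1 had 0.203 (0.167 to 0.245), the complex I assembly gene Ecsit 0.314 (0.239 to 0.404) and Tfam, which packages the mitochondrial genome and activates its transcription, 0.332 (0.274 to 0.399). Of the 8 regulators of mitochondrial biogenesis that passed the filter 6 were lower and 1 higher past 1.5-fold, where 36.4% of all genes were lower and 28.7% higher.

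Tumor cells of the CD4/CD8 matrix had 1.96 times the mitochondrially encoded share of CD8 T cells and 0.985 times their nuclear-encoded share (0.979 to 0.991). This set ratio was not stable in direction. It was 1.04 without mitochondrially encoded UMIs, 1.03 when cells with over 10% of such UMIs were left out, 0.858 after the scaling, 1.00 without run 2 and 1.01 without run 5. Within runs it ranged from 0.807 to 1.07, and among cells with 5000 to 10000 UMIs it was 0.639 (32 tumor cells), where tumor cells had a mitochondrially encoded share of 24.0%. The median of UMIs per cell was 17402 in tumor cells and 4559 in CD8 T cells. The mitochondrially encoded ratio stayed above 1 in all 6 runs (1.39 to 2.55). Under 2000 UMIs, however, the mitochondrially encoded share was 6.87% in 33 tumor cells and 18.4% in 993 CD8 T cells. Tumor cells had the higher share in every deeper bin. Per nuclear-encoded UMI, tumor cells had 3.67 mitochondrially encoded UMIs in complex I, 5.17 in complex III, 9.28 in complex IV and 4.06 in complex V, beside 1.94, 1.84, 5.07 and 1.94 in CD8 T cells.

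Here 15 of 83 members were higher and 3 lower past 1.5-fold, 21.7% against 61.7% of all genes (38.1% higher and 23.6% lower). The members' counts were 9 higher and 10 lower after the scaling and 9 higher and 38 lower in the depth window. The 61.7% does not apply to those 2 settings, for which no share of all genes is given. Ndufc2 had 247 to 331 CPM in tumor cell runs (median 261) and a ratio of 2.51 (2.38 to 2.64). Uqcr11 had 232 to 329 CPM (median 249) and a ratio of 2.49 (2.37 to 2.63), and Sdhc 63.8 to 101 CPM (median 78.2) and a ratio of 1.94 (1.76 to 2.13). All tumor cell runs of these 3 genes exceeded all CD8 runs. The 3 lower members were Atp5e, with 285 to 350 CPM (median 307) in tumor cell and 537 to 773 CPM (median 661) in CD8 runs and a ratio of 0.501 (0.479 to 0.524), Uqcrh with a ratio of 0.539 (0.518 to 0.559) and Cox7a2l with 0.577 (0.551 to 0.604). None of their tumor cell runs reached the lowest CD8 run.

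Of 52 pathway genes 13 were higher and 7 lower past 1.5-fold in these tumor cells, beside 61.7% of all genes in either direction, with Atpif1 at 3.41 (3.27 to 3.56), Acad9 at 2.84 (2.29 to 3.49) and Vdac1 at 2.62 (2.46 to 2.80), and Cox17 at 0.491 (0.437 to 0.551), Tfam at 0.507 (0.420 to 0.608) and Cox10, which makes the heme of complex IV, at 0.550 (0.403 to 0.734). The 3 comparisons of the CD4/CD8 matrix share the CD8 T cells as the second gate.

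The set share also varied with the depth of the cells within a gate. In CD8 T cells it was 1.14% in cells under 2000 UMIs, 1.70% from 2000 to 5000, 1.83% from 5000 to 10000, 2.19% from 10000 to 20000 and 2.53% in the 102 cells with 20000 UMIs or more. DCs went from 1.04% in 85 cells of 2000 to 5000 UMIs to 2.00% in 133 cells of 20000 or more. Macrophages of the CD11c matrix were high at both ends, with 1.82% under 2000 UMIs, 1.34% from 5000 to 10000 and 1.96% at 20000 or more, and tumor cells of that matrix had 2.08%, 1.16% and 1.67% in the same bins. The mitochondrially encoded share of the shallowest CD8 T cells was 18.4%.

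In every gate compared the cells with most mitochondrially encoded UMIs had the lowest set share, also with mitochondrially encoded UMIs left out of the total. In CD8 T cells the share so computed was 1.85% to 2.02% in cells with up to 10% mitochondrially encoded UMIs, 1.60% in 482 cells with 10 to 20% and 1.23% in 558 cells with more. Those 558 cells had a median of 1141 UMIs, beside 5292 in the cells at 4 to 6%. Their ribosomal protein share without mitochondrially encoded UMIs was also lower, 12.6% beside 30.9%. Depth was not held constant in these bins. Macrophages of the CD11c matrix had 1.83% at 4 to 6%, 1.45% at 10 to 20% and 1.20% in 35 cells above. DCs had 1.94%, 1.24% and, in 16 cells, 0.796% in the same bins. Tumor cells above 20% had 1.70% (28 cells, CD11c matrix) and 1.51% (47 cells, CD4/CD8 matrix). The highest bins of neutrophils and Tregs held only 5 and 2 cells. Between single cells of at least 2000 UMIs the SD of the set share was 2.25 to 5.10 times that from counting alone, depending on the gate.

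**Figure D4:**
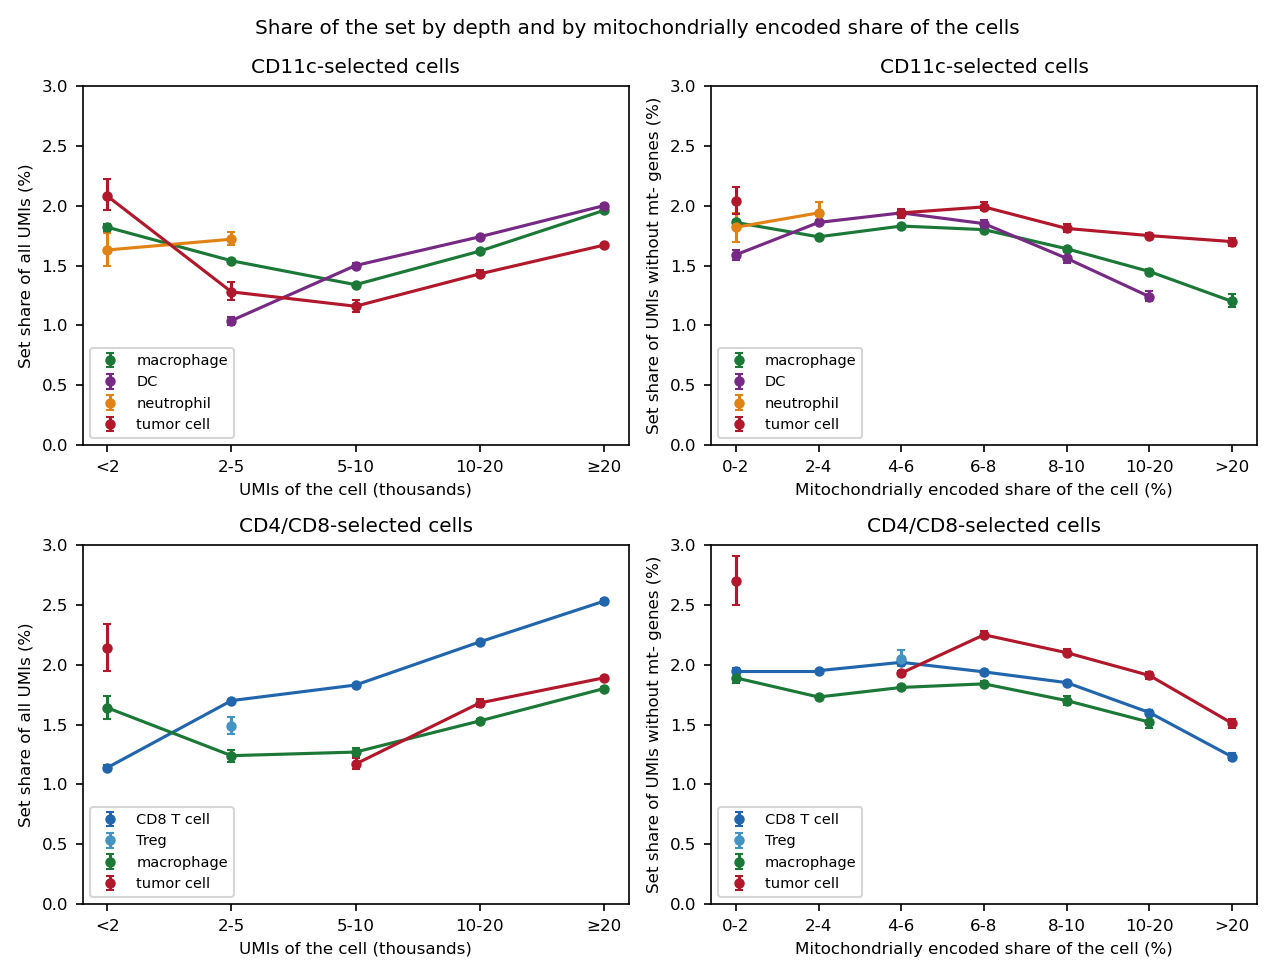
Share of the nuclear-encoded set by UMIs per cell (left, % of all UMIs) and by mitochondrially encoded share of the cell (right, % of UMIs without mitochondrially encoded genes) in CD11c-selected (top) and CD4/CD8-selected cells (bottom); bins with at least 20 cells are shown, neighbouring bins are joined and bars are 95% exact binomial intervals. CD8 T cells went from 1.14% to 2.53% with depth. In CD8 T cells, macrophages, DCs and tumor cells the share was lowest where the mitochondrially encoded share was high.

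Cells with transcripts of the cell cycle genes Mki67 and Top2a had a high set share in both lineages. In the CD4/CD8 matrix the share was 2.34% in 1005 CD8 T cells with both transcripts and 1.75% in 11203 with neither, and 2.20% and 1.78% among cells with 5000 to 10000 UMIs. In CD11c-selected macrophages it was 2.02% in 295 and 1.59% in 3306 cells, and 1.76% (46 cells) and 1.31% in the same depth window. CD8 T cells with the exhaustion markers Pdcd1 and Havcr2 had 2.11% (519 cells) and, without either cell cycle transcript, 1.96% (300 cells), and 2.06% and 2.02% in the window. States defined by a UMI of a marker also hold deeper cells, such as the macrophages with Mki67 and Top2a (median 17257 UMIs) beside those with neither (7161).

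Among DCs those with the migration markers Ccr7 and Fscn1 had the lowest share, 1.38% in 124 cells, compared with 1.85% in 257 cells with Xcr1 and Clec9a (type 1 conventional DCs) and 1.83% in 292 cells with Cd209a (type 2). In the 5000 to 10000 UMI window these were 1.29%, 1.47% and 1.58%. Macrophages with Lyve1 had 1.41% (162 cells) and those with Gpnmb and Trem2, markers of lipid-associated macrophages, 1.81% (309 cells), or 1.26% and 1.44% in the window.

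A small group of members, paralogs of broadly transcribed subunits, had its highest levels in small gates. Cox6a2, the heart and skeletal muscle isoform of Cox6a (chr7:128205435-128206387), had 1104 CPM (1009 to 1205) in the 48 plasmacytoid DCs of the CD4/CD8 matrix, where 44 of 48 cells had a transcript (median depth 9146 UMIs). CD8 T cells, at a median depth of 4559 UMIs, had 1.19 CPM and a transcript in 0.289% of cells. In the same plasmacytoid DCs the broadly transcribed Cox6a1 had 257 CPM, close to the 233 CPM of CD8 T cells. Of the 1476 Cox6a2 UMIs of the matrix 33.7% fell in this gate and 48.2% in 96 cells of no gate with a UMI of Siglech, a plasmacytoid DC receptor that had been used in the gate, at 427 CPM, while cells of no gate without Siglech had 3.12 CPM. In the CD11c matrix Cox6a2 had 205 CPM (157 to 263) in 26 plasmacytoid DCs, in 8 of which it was found, beside 3.55 CPM in macrophages and 0.181 CPM (2 UMIs) in conventional DCs. The median depth of these plasmacytoid DCs was 10184 UMIs, similar to that of the CD4/CD8 matrix, where 44 of 48 cells had a transcript. Whether the gate holds the same cells in both matrices was not tested. Of its 552 UMIs in that matrix 11.1% fell in plasmacytoid DCs, 31.7% in cells of no gate with Siglech, 28.6% in cells of no gate without it and 28.1% in macrophages.

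Ndufa4l2, a paralog of Ndufa4, and Cox4i2, the second isoform of Cox4, were highest in cells with stromal markers. Cells that passed both the fibroblast and the pericyte gate had 154 CPM of Ndufa4l2 (43 cells of the CD11c matrix, 45.8% of its UMIs) and 327 CPM (40 cells of the CD4/CD8 matrix, 59.2%), compared with 0.0608 CPM in CD8 T cells. Cox4i2 had 34.9 CPM (27 UMIs, 21.6% of its UMIs) and 78.3 CPM (44 UMIs, 67.7%) in these cells, 0.733 CPM but 25.6% of its UMIs in CD11c-selected macrophages, and 1 UMI in all 15221 CD8 T cells. Their counterparts Ndufa4 and Cox4i1 were present in every gate, with Cox4i1 between 473 CPM in fibroblasts and 840 CPM in macrophages of the CD11c matrix.

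**Figure D5:**
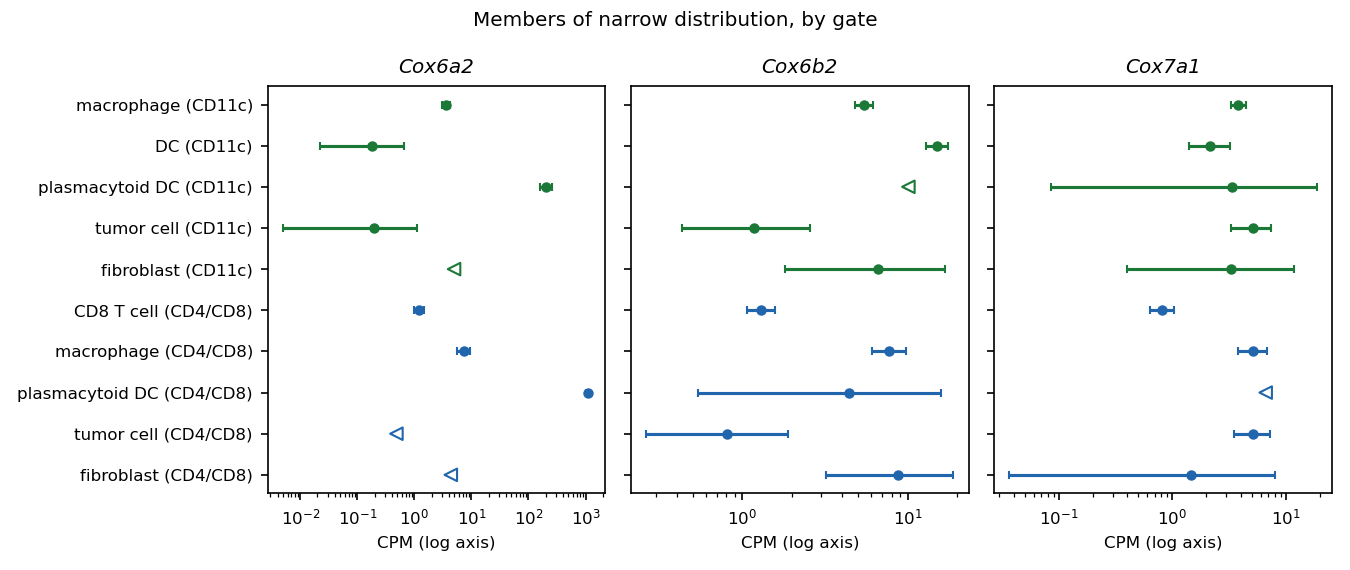
CPM (log axis) of Cox6a2, Cox6b2 and Cox7a1 in 10 gates, green for the CD11c and blue for the CD4/CD8 matrix; bars are 95% exact Poisson intervals and an open triangle marks a gate with 0 UMIs, drawn at the limit that 3 counts set. Cox6a2 reached 1104 CPM in plasmacytoid DCs of the CD4/CD8 matrix and Cox6b2 15.1 CPM in DCs.

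Cox7a1, the muscle isoform of Cox7a, stayed low, with 5.09 and 5.16 CPM in tumor cells, 3.82 and 5.14 CPM in macrophages and 0.815 CPM in CD8 T cells. Its broad counterpart Cox7a2 had 299 to 351 CPM in the same gates. Cox7b2 and Cox8c had 0 UMIs in both matrices, and Cox7b and Cox8a were the detected members of their pairs, with 288 and 597 CPM in CD11c-selected macrophages. Of the genes of the c-ring of complex V, Atp5g2 had 531 CPM in CD8 T cells and 344 CPM in macrophages of the CD4/CD8 matrix, while Atp5g1 had 255 and 237 CPM and Atp5g3 233 and 185 CPM. For Atp5o, 1 of the 2 annotated rows overlaps the other on chromosome 16 and had 1 and 0 UMIs, so that the level of this subunit rests on the other row.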

How the data were processed

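Single-cell transcripts of CD11c-selected and CD4/CD8-selected cells from MMTV-PyMT tumors were analysed from 2 matrices. The authors deposited raw UMI counts, 1 whole number for each gene in each cell, with no scaling; the submitters' processing notes name Cell Ranger 3.0.2 and mm10. The deposited barcodes name no sample, so each matrix of 6 samples was treated as 1 and the planned comparison of genotypes was not run. No column of per-sample values was left unused (0). The members and lists were chosen with earlier results of these data known.

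Barcodes with fewer than 200 detected genes were removed, and the other cells were gated on raw marker UMIs with excluded markers; cells passing 2 gates were left out of both, except where named. No doublet caller was run. The macrophage gate, for example, required 5 UMIs of C1qa, C1qb and C1qc together, 1 of Adgre1, Fcgr1 or Mertk, and no UMI of Cd3e, Cd3d, Epcam, Flt3, Zbtb46 or Csf3r. UMIs were summed per gate and given as percent or as CPM of all UMIs. Binomial (Clopper-Pearson), Poisson and conditional ratio intervals at 95% were computed in scipy 1.17.1 under Python 3.11.15; they cover counting error only. A member was counted past 1.5-fold if its mean over 2 gates was at least 10 CPM. Named were the 3 members of highest and lowest ratio per comparison, the 3 with most UMIs per complex, isoform pairs, the 4 Sdh subunits, and the 3 highest and lowest pathway genes; further members past 1.5-fold, the genes plotted by run, the cell states, the 5000 to 10000 UMI window, the Siglech split, the cells of 2 gates, the motifs and the promoters shown were chosen after values were seen. Scripts were tested on simulated data. Reads shared with pseudogenes or near-identical copies were not examined.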

Additional observations from a re-analysis of the deposited data

How the results depend on the processing

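No paired analysis was possible because the barcodes carry no replicate numbers of the samples; the ratios within barcode runs compare gates of the same run. Alternatives gave the set ratio 76 times: 30 times it moved by less than its counting interval, 38 times by more, and 8 times its direction reversed. A reversal was counted only where the main interval excluded 1. Crossings of 1 in Tregs, such as 1.02 with doubled gate thresholds, are therefore not among the 8. After scaling to UMIs outside mitochondrially encoded and ribosomal protein genes the ratios were 1.11 (DC over macrophage), 0.959 (neutrophil), 1.04 (tumor cell), 0.873 (Treg over CD8 T cell), 0.709 (macrophage) and 0.858 (tumor cell), and past 1.5-fold were 13 members in Tregs and 32 in macrophages. Without cells over 10% mitochondrially encoded UMIs the tumor cell ratios were 1.04 and 1.03, and 8 members were past 1.5-fold in Tregs. With every cell weighing the same the ratios were 1.03 (DC), 1.09 (neutrophil), 1.00 (tumor cell over macrophage), 0.905 (Treg) and 0.996 (tumor cell over CD8 T cell), with 11 members in Tregs. Doubled gate thresholds gave 1.02 and 14 members (Treg), 0.895 (macrophage) and 0.971 (tumor cell over CD8 T cell), and gates that allow 1 excluded UMI gave 1.08 (DC), 0.976 (tumor cell over macrophage), 0.942 (Treg), 0.897 (macrophage) and 0.998 (tumor cell over CD8 T cell). Without the filter on low values 18 members passed in DCs, 18 in CD11c-selected tumor cells and 16 in Tregs, and at 2-fold 2, 5, 1, 1, 6 and 2 did, in the order of the ratios above.

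Among cells with 5000 to 10000 UMIs, an alternative chosen after seeing the data, the ratios were 1.13 (DC), 0.868 (tumor cell over macrophage), 0.692 (macrophage over CD8 T cell) and 0.639 (tumor cell over CD8 T cell), and 20, 34 and 47 members were past 1.5-fold in the last 3. Neutrophils and Tregs had too few such cells. Single members that reversed here were Ndufa11 (0.766), Ndufa4 (0.921), Ndufa7 (0.946), Ndufab1 (0.807), Ndufaf3 (0 UMIs in tumor cells, a ratio of 0) and Uqcrb (0.689) in tumor cells over CD8 T cells, and Ndufab1 (0.992), Ndufb8 (0.810) and Ndufs5 (0.929) in macrophages over CD8 T cells. Without run 6 Sdhb (1.14) and Sdhaf4 (1.01) reversed in neutrophils. The cause was not tested. Counts of members past 1.5-fold under the alternatives, in all sections, are given without the share of all genes at the same setting. They show how far the counts moved and are not set against a background.

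When each barcode run was left out in turn, the set ratio ranged from 1.02 to 1.08 (DC), 0.983 to 1.08 (neutrophil), 0.902 to 0.983 (tumor cell over macrophage), 0.982 to 1.01 (Treg), 0.833 to 0.927 (macrophage over CD8 T cell) and 0.934 to 1.01 (tumor cell over CD8 T cell). The members past 1.5-fold then numbered 28 to 32 (neutrophil), 9 to 11 (tumor cell over macrophage), 7 to 10 (Treg), 17 to 22 (macrophage) and 18 to 21 (tumor cell over CD8 T cell). Depth limits the neutrophils (264597 UMIs) and Tregs (356479 UMIs), where single members rest on few UMIs, and 51.1% of the CD11c-selected cells were in no gate.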
